A study of Mus musculus with 8 samples.

Results

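The genes described here are 7 markers of B cells and of the plasma cells that B cells become: Ighm, Jchain, Mzb1, Derl3, Cd79a, Cd79b and Ms4a1. They were taken by name, and every probe set annotated to 1 of these symbols and to no other gene was kept, which gave 18 of the 45037 probe sets on the array that are not controls. Ighm had 11 probe sets, Ms4a1 had 2 and the other genes had 1 each. A further 4 probe sets name Ighm together with other immunoglobulin genes and were not members. The samples were belly skin of 8-month-old mice. The transgenic group held 4 mice carrying a hurpin transgene (female 7, male 11, male 17 and female 84), and the wildtype group held 3 mice (males 26 and 28, female 29). Hurpin, also called SERPINB13, is a clade B serpin that inhibits the protease cathepsin L. The promoter that drives the transgene, the number of lines and the strain are not given in the sources used here. Each mouse was on 1 array except wildtype 29, which was on 2, and those 2 arrays were averaged.

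B cells carry surface immunoglobulin, whose signal passes through the paired chains encoded by Cd79a and Cd79b, and Ms4a1 encodes their surface protein CD20. After activation some B cells become plasma cells, which lose much of that surface machinery and secrete antibody in bulk. Ighm encodes the heavy chain of IgM, Jchain the joining chain that links IgM and IgA into polymers, Mzb1 a chaperone of the endoplasmic reticulum that helps assemble antibody, and Derl3 a protein of the degradation route for misfolded proteins in that compartment. Mouse skin holds few B lineage cells compared with lymphoid tissue. In whole skin, fewer cells of a type and less RNA per cell cannot be told apart.

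Values are MAS5 signal intensities, analysed as log2 of intensity plus 21.8, a scale whose floor is 4.45. Summed intensity per array lay between 34785081 and 37857733. A probe set was tested when its mean over the 7 animals reached 6.45, which 27022 probe sets did, and limma called 4 of them (0.0148%) at an adjusted p under 0.05. For the Gapdh control, dividing 3' by 5' intensity gives the Gapdh ratio, which is high where RNA is degraded or poorly copied. Transgenic 84 had a Gapdh ratio of 17.2, transgenic 7 of 13.8, transgenic 17 of 4.68 and transgenic 11 of 1.45, while the 4 wildtype arrays ranged over 0.927 to 1.41. Every transgenic animal lay above every wildtype array, so group and Gapdh ratio cannot be told apart well. Differences adjusted for the ratio, given below, lean on transgenic 11, the transgenic animal nearest to wildtype, and are not corrected values. Keratinocyte markers gave a summed intensity of 120117 to 148393 in transgenic and 108878 to 152569 in wildtype skin, so the labelled tissue was visible in both groups. Detection calls were not analysed here.

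Transgenic skin did not differ from wildtype skin beyond the threshold in any of the B cell and plasma cell probe sets. Of the 18, 9 passed the level filter, from Ighm, Jchain, Mzb1 and Derl3, and limma called 0 of these 9, with adjusted p between 0.301 and 0.972. At an unadjusted p under 0.05 limma gave 1 of 9, near the 11.7% of all tested probe sets. Counting higher in transgenic skin only, it was 0 of 9 at the adjusted threshold (0.00740% of all tested) and 1 of 9 at the unadjusted one (3.77%), and 1 of 9 had groups that did not overlap (4.58%). The 9 below the filter were 5 of Ighm and every probe set of Cd79a, Cd79b and Ms4a1. Differences over all 18 ran from -0.65 to 1.42 on the log2 scale, 7 above 0 and 11 below.

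**Figure D1:**
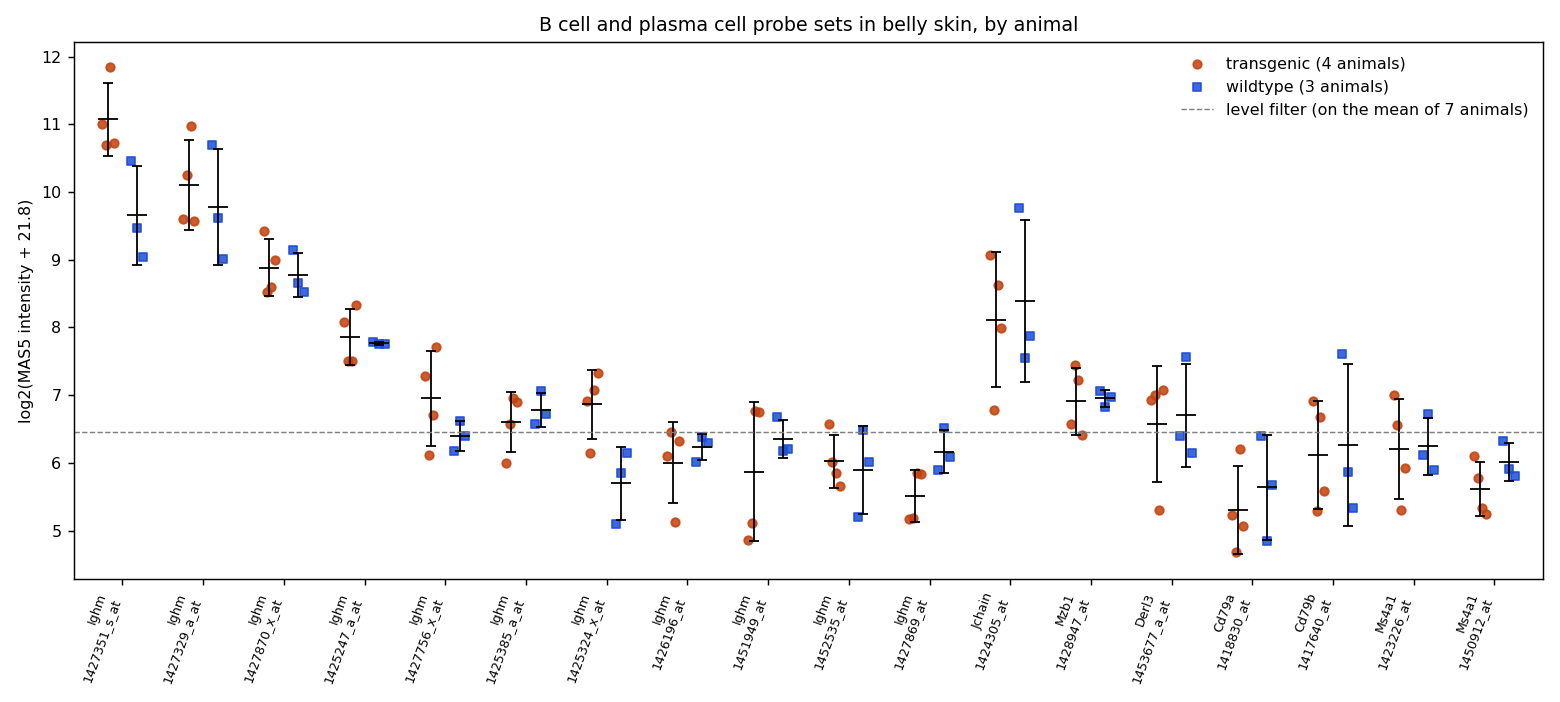
Log2(MAS5 intensity + 21.8) of each of the 18 probe sets (vertical axis), with 1 point per animal, transgenic circles left of wildtype squares. Black bars give the mean ± SD of 4 transgenic and 3 wildtype animals, and the dashed line is the level filter at 6.45. The groups stand apart most clearly in Ighm 1427351_s_at, and the probe sets of Cd79a, Cd79b and Ms4a1 average below the line.

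Ighm held both the largest difference and the least uniform one. Probe set 1427351_s_at measured 11.01, 10.70, 11.85 and 10.73 in transgenic 7, 11, 17 and 84, against 10.46, 9.47 and 9.04 in wildtype 26, 28 and 29. All 4 transgenic animals lay above all 3 wildtype animals, though transgenic 11 and wildtype 26 were only a short step apart. The log2 difference was 1.42 (SE 0.379, 95% interval 0.56 to 2.28), a 2.67-fold ratio, and it missed the threshold over all probe sets (limma adjusted p = 0.301). An exact permutation test over the animals gave 2-sided p = 0.0571, which is the lower limit of that test for groups of this size. In intensity the same probe set read 2047, 1643, 3680 and 1676 in the transgenic animals and 1387, 687, 542 and 469 on the wildtype arrays.

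The other Ighm probe sets did not share that separation evenly. Probe set 1427329_a_at, the next most intense for this gene, measured 9.60, 10.25, 10.98 and 9.57 in transgenic 7, 11, 17 and 84, against 10.70, 9.62 and 9.01 in wildtype 26, 28 and 29. Transgenic 17 was again the highest and wildtype 29 again the lowest, but wildtype 26 stood second and the groups overlapped (log2 difference 0.32, 95% interval -0.70 to 1.34, limma adjusted p = 0.807). Leaving out wildtype 29 turned that difference to -0.06.

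Probe set 1427870_x_at measured 9.42, 8.52, 8.59 and 9.00 in transgenic 7, 11, 17 and 84, against 9.14, 8.66 and 8.52 in wildtype 26, 28 and 29. Probe set 1425247_a_at measured 8.08, 7.51, 7.50 and 8.33 in the transgenic animals, against 7.79, 7.76 and 7.75 in the wildtype animals. Probe set 1427756_x_at measured 7.29, 6.11, 6.70 and 7.71 in the transgenic animals, against 6.18, 6.62 and 6.40 in the wildtype animals. In these probe sets females 7 and 84 were the 2 highest transgenic animals, and they are also the animals with the highest Gapdh ratios. The log2 differences were 0.11, 0.09 and 0.55, and adjusted for the Gapdh ratio they became -0.42, -0.48 and -0.49 (limma adjusted p = 1 for each). The part of RNA quality in these values was not tested further. Probe set 1425385_a_at gave a difference of -0.18 and turned to 0.03 without transgenic 7.

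Below the filter, Ighm 1425324_x_at measured 6.91, 6.15, 7.07 and 7.32 in transgenic 7, 11, 17 and 84, against 5.10, 5.85 and 6.15 in wildtype 26, 28 and 29. The transgenic animals lay above the wildtype ones, the lowest of them level with wildtype 29 to the 2 decimals given here (difference 1.16, exact permutation test, 2-sided p = 0.0571). Raising the pseudocount to 87.2 gave 0.61, and adjusting for the Gapdh ratio gave 0.50. The 2 arrays of wildtype 29 read 5.26 and 7.03 for this probe set, a gap of 1.76 within 1 animal, which is larger than the difference between the groups. Probe set 1427869_at lay lower in all transgenic animals (difference -0.65, exact permutation test, 2-sided p = 0.0571), with a gap of 1.65 between the arrays of wildtype 29. The other 3 probe sets gave -0.49, -0.23 and 0.13 with overlapping groups. In the probe set naming of this array, the endings _s_at and _x_at mark sets whose probes can match more than 1 transcript, and gene segments of the heavy chain locus are alike in sequence, so an Ighm probe set may also read other transcripts. Among all 45037 probe sets, 3.83% had every transgenic animal above every wildtype animal and 5.57% the reverse. Among the 18 described here these were 2 and 1, all of them of Ighm.

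**Figure D2:**
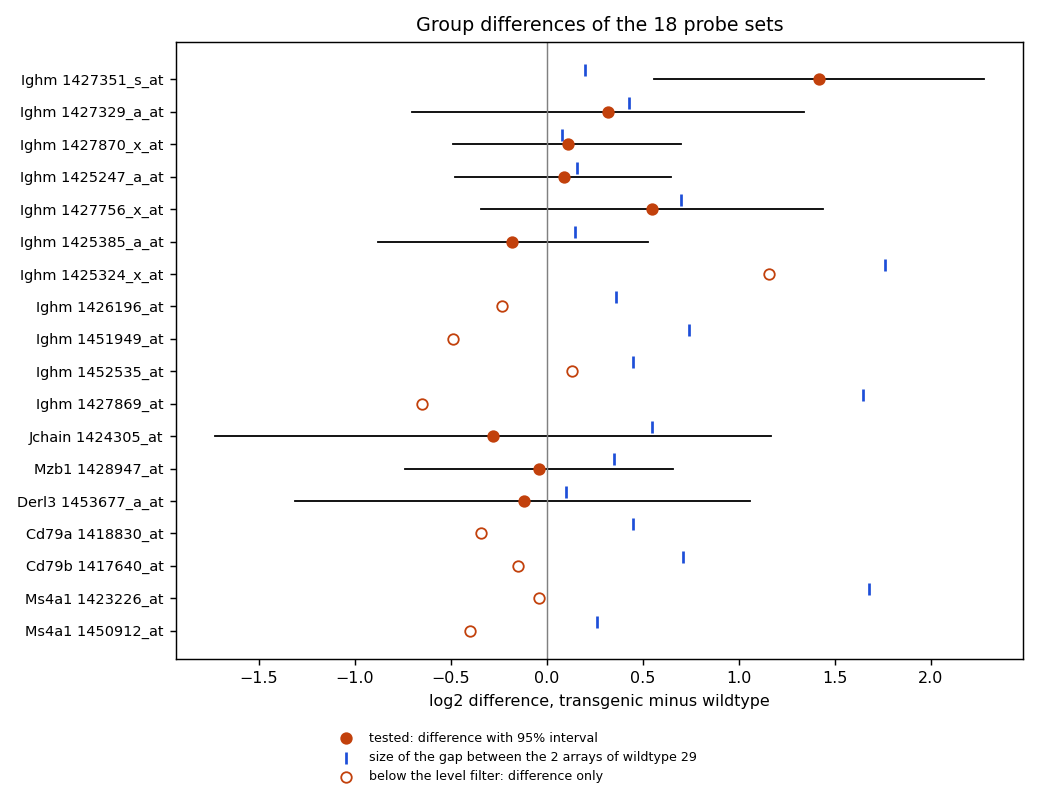
Log2 difference, transgenic minus wildtype (horizontal axis), for each of the 18 probe sets, with filled points and 95% intervals for the 9 tested and open points for the 9 below the level filter. Blue ticks give the size of the gap between the 2 arrays of wildtype 29. Only the interval of Ighm 1427351_s_at (0.56 to 2.28) leaves out 0, and the tick lies beyond the size of the group difference in 13 of the 18.

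Jchain varied far more between animals than between groups. Its probe set measured 9.07, 6.78, 8.62 and 7.99 in transgenic 7, 11, 17 and 84, against 9.76, 7.55 and 7.87 in wildtype 26, 28 and 29. Wildtype 26 was the highest and transgenic 11 the lowest, 2.97 apart on the log2 scale, and the other animals of both groups were interleaved between them. The mean ± SD was 8.11 ± 0.99 over the 4 transgenic animals and 8.39 ± 1.19 over the 3 wildtype animals, a log2 difference of -0.28 with a 95% interval from -1.73 to 1.17 (limma adjusted p = 0.892). The difference became 0.16 without transgenic 11, 0.40 without wildtype 26 and -1.41 when adjusted for the Gapdh ratio. That adjusted value leans on transgenic 11, the lowest animal for Jchain. The interval leaves room for a change of more than 2-fold either way.

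The region before the Jchain start is shown because this gene carried the widest spread between animals. It is the RefSeq promoter window on GRCm38.p6, chr5:88527848-88528147, minus strand, read 5′ to 3′, 300 bases in all across the start. Capitals mark the E-box CANNTG, a motif bound by helix-loop-helix factors, which reads the same on both strands.
Jchain: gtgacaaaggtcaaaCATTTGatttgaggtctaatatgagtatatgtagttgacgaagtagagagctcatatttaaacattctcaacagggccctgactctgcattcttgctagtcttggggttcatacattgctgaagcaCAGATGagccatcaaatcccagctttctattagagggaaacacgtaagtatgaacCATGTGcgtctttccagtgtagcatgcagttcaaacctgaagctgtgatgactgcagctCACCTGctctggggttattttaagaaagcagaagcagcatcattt
The window holds 4 E-boxes, starting 235, 109 and 54 bases before the start and 1 after it, and 72.3% of all 32851 promoter windows hold at least 1. The octamer ATGCAAAT, known from immunoglobulin promoters, was searched on both strands and is not in this window (1.74% of all windows hold it). RefSeq windows were found for 3 genes, Jchain, Derl3 and Cd79a, and not for Ighm, Cd79b or Ms4a1. Mzb1 was not looked up.

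The pattern of Jchain over the animals was matched most closely by another antibody gene. Igha, the heavy chain of IgA, had the highest Pearson correlation with Jchain over the 7 animals of 13555 genes compared (r = 0.970, a description of 7 animals from 2 groups that shares each animal's array). Igha measured 10.27, 7.73, 10.05 and 9.19 in transgenic 7, 11, 17 and 84, against 11.54, 9.38 and 9.15 in wildtype 26, 28 and 29. As with Jchain, wildtype 26 was the highest, transgenic 7 and 17 came next and transgenic 11 was the lowest. The Igha difference was -0.72 (SE 0.716, limma adjusted p = 0.718), 0.04 without wildtype 26 and -1.98 when adjusted for the Gapdh ratio. Its other 2 probe sets gave -0.21 and -0.08. The next genes were Snx14, a sorting nexin (r = 0.969), Tmem132c (r = 0.960), Zfpm2, a cofactor of GATA factors (r = 0.959), and Zfhx3, a homeodomain factor (r = 0.959). Their ranges over the animals were smaller than that of Igha, and Snx14 moved only between 9.67 and 10.08.

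Some immunoglobulin probe sets shared the extremes of Jchain, which was noticed after the values were seen and was not tested. Of the 10 tested immunoglobulin probe sets not annotated to Ighm alone, 3 of them of Igha, 8 were highest in wildtype 26, against 21.7% of all tested probe sets, and 5 were lowest in transgenic 11, against 8.50%. Both extremes were shared by 5 of the 10, while Igk and Igkv9-120, a kappa variable segment, were highest in transgenic 11, and Ighg3 was lowest in transgenic 7. The 10 leave out Igll1 and Vpreb3, which are in the immunoglobulin list below and were tested. Igll1 went the other way, lowest in wildtype 26 (5.41) and highest in wildtype 28 (7.25). The 3 annotated to several immunoglobulin genes had log2 differences from -0.24 to 0.10. Such probe sets may read the same transcripts, and wildtype 26 and transgenic 11 were picked as the extremes of Jchain. The counts above are thus a description and not separate observations. The summed intensity of T and natural killer cell markers was 2793 to 3939 in transgenic animals, against 4733 in wildtype 26, the highest of all, and 2349 and 2554 in the other wildtype animals. Macrophage and dendritic cell markers summed to 56150 to 75928 in transgenic animals, against 87791 in wildtype 26, again the highest, and 39660 and 48436 in the other wildtype animals. By summed intensity transgenic 11 was the lowest of the transgenic animals in both lists. By mean log2 value over the tested genes it was transgenic 84 in both. The T and natural killer cell list averaged 7.78 in transgenic 84 and 7.79 in transgenic 11, and the macrophage and dendritic cell list 10.98 and 11.21. The part of leukocyte content in the immunoglobulin values was not tested.

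**Figure D3:**
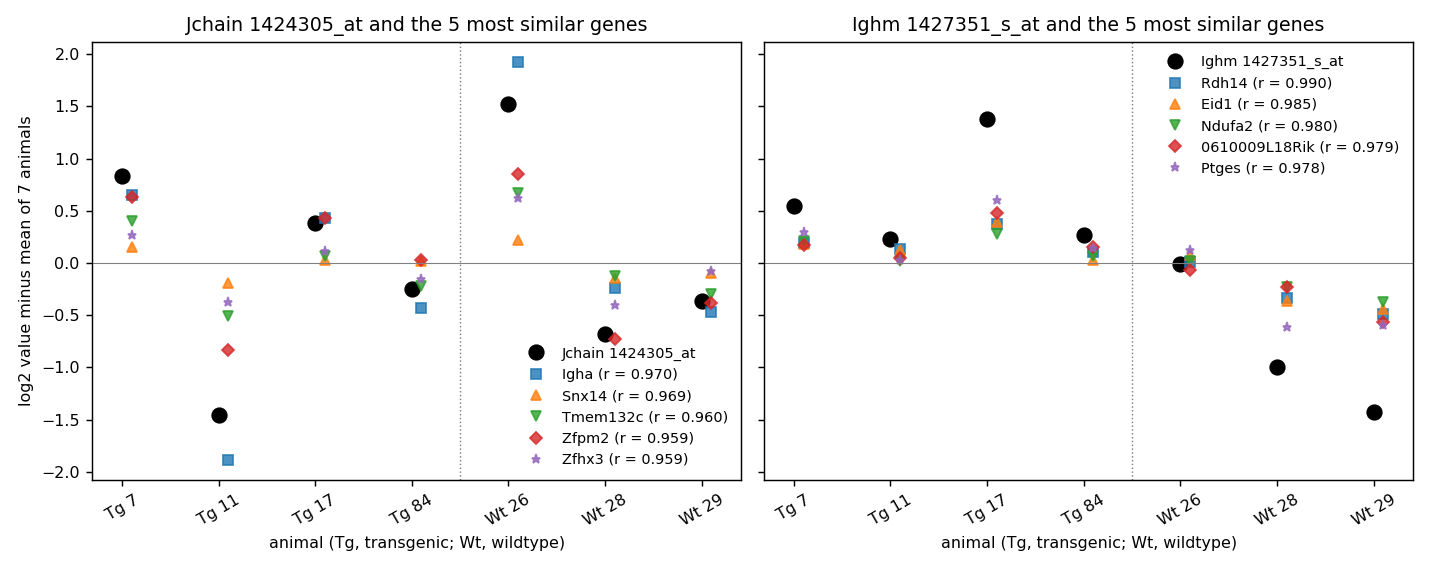
Log2 value minus the mean of the 7 animals (vertical axis) by animal, transgenic left of the dotted line and wildtype right of it, for Jchain (left) and Ighm 1427351_s_at (right, black circles) with the 5 genes most correlated with each over the 7 animals. Igha follows Jchain from transgenic 11 (lowest) to wildtype 26 (highest), while the genes beside the Ighm probe set have smaller ranges than it and none is an immunoglobulin gene.

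Ighm 1427351_s_at did not follow this animal order. Over the 7 animals its correlation was 0.31 with Jchain and 0.191 with Igha, and 0.72 with the other intense Ighm probe set, 1427329_a_at. The genes most like it, chosen after its values were seen, were Rdh14 (r = 0.990), a retinol dehydrogenase, Eid1 (r = 0.985), an inhibitor of differentiation factor, Ndufa2 (r = 0.980), a subunit of respiratory complex I, 0610009L18Rik (r = 0.979) and Ptges (r = 0.978), a prostaglandin E synthase. Of these Rdh14 measured 11.02, 10.96, 11.20 and 10.93 in transgenic 7, 11, 17 and 84, against 10.83, 10.49 and 10.34 in wildtype 26, 28 and 29. No immunoglobulin gene was among them. Among the other tested Ighm probe sets, the correlation with Jchain was 0.72 for 1427870_x_at and -0.37 to 0.35 for the rest.

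Mzb1 stayed within a narrow range. It measured 6.58, 7.44, 7.22 and 6.41 in transgenic 7, 11, 17 and 84, against 7.06, 6.82 and 6.98 in wildtype 26, 28 and 29. The transgenic animals lay on both sides of the wildtype ones, males 11 and 17 above them and females 7 and 84 below. The log2 difference was -0.04 with a 95% interval from -0.74 to 0.66 (limma adjusted p = 0.972), and its sign turned after quantile (0.02) and cyclic loess normalization (0.04). Adjusted for the Gapdh ratio it was 0.69 (limma adjusted p = 1), and the 2 animals with the highest ratios were the lowest in Mzb1. Over the 7 animals Mzb1 had a correlation of -0.25 with Jchain. With the tested Ighm probe sets it ranged from -0.95 (1425247_a_at) to 0.57 (1427329_a_at).

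Derl3 stood apart in 1 transgenic animal. It measured 6.93, 7.00, 5.30 and 7.07 in transgenic 7, 11, 17 and 84, against 6.40, 7.56 and 6.14 in wildtype 26, 28 and 29. Transgenic 17 was the lowest of all 7 animals, while the other transgenic animals lay close together and inside the wildtype range. Its intensity read 17.5 in transgenic 17, below the 21.8 added before taking logs, and 46.4 to 167 on the other arrays. The log2 difference was -0.12 (95% interval -1.31 to 1.06, limma adjusted p = 0.947), and it became 0.30 without transgenic 17 and also 0.30 without wildtype 28.

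The Derl3 promoter window is shown because it holds the full ER stress response element, through which the unfolded protein response raises genes of this compartment. It is the RefSeq window on GRCm38.p6, chr10:75893148-75893447, plus strand, read 5′ to 3′, and capitals mark the element, CCAAT and CCACG with 9 bases between them, found here on the opposite strand.
Derl3: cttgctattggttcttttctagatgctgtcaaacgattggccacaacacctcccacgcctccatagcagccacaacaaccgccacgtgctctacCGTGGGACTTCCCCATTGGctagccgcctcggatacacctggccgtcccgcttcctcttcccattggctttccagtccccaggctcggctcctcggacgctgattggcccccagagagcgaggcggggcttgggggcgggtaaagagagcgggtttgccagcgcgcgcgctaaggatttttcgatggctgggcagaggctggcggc
The match begins 156 bases before the start. The element was searched on both strands and is held by 0.119% of all promoter windows, 39 of 32851, and it is in neither the Jchain nor the Cd79a window. This describes the letters only, and no measurement of the element was made.

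The surface genes of B cells lay near the bottom of the scale in both groups. Cd79a measured 5.23, 4.69, 6.21 and 5.07 in transgenic 7, 11, 17 and 84, against 6.39, 4.84 and 5.68 in wildtype 26, 28 and 29. Cd79b measured 6.91, 5.29, 6.68 and 5.59 in the transgenic animals, against 7.61, 5.86 and 5.33 in the wildtype animals. Both chains of the receptor were highest in wildtype 26 and lowest in transgenic 11. Intensities were 4 to 62.2 for Cd79a and 9.7 to 173 for Cd79b. Jchain had the same extremes, but here the low one was a rank by small steps. Cd79a was 4.84 in wildtype 28, and Cd79b was 5.33 in wildtype 29, whose first array read 4.98. The differences of Cd79a and Cd79b were -0.34 and -0.15, with overlapping groups (exact permutation test, 2-sided p = 0.571 and 0.857). Without wildtype 26 they were 0.04 and 0.52, and Cd79b was -0.62 without wildtype 29 and 0.13 without transgenic 11.

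Ms4a1 had 2 probe sets that differed in which animals were high. Probe set 1423226_at measured 7.00, 6.56, 5.31 and 5.93 in transgenic 7, 11, 17 and 84, against 6.11, 6.72 and 5.90 in wildtype 26, 28 and 29. Probe set 1450912_at measured 6.10, 5.77, 5.33 and 5.25 in the transgenic animals, against 6.33, 5.91 and 5.80 in the wildtype animals. Female 7 was the highest transgenic animal in both. The differences were -0.04 and -0.40 (exact permutation test, 2-sided p = 0.971 and 0.229), and that of 1423226_at was 0.25 without transgenic 17 and 0.20 without wildtype 28. For 1423226_at the 2 arrays of wildtype 29 read 5.06 and 6.74, a gap of 1.68 within 1 animal. Pou2af1, a B cell coactivator of octamer-binding factors, also lay below the filter (difference -0.11).

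**Figure D4:**
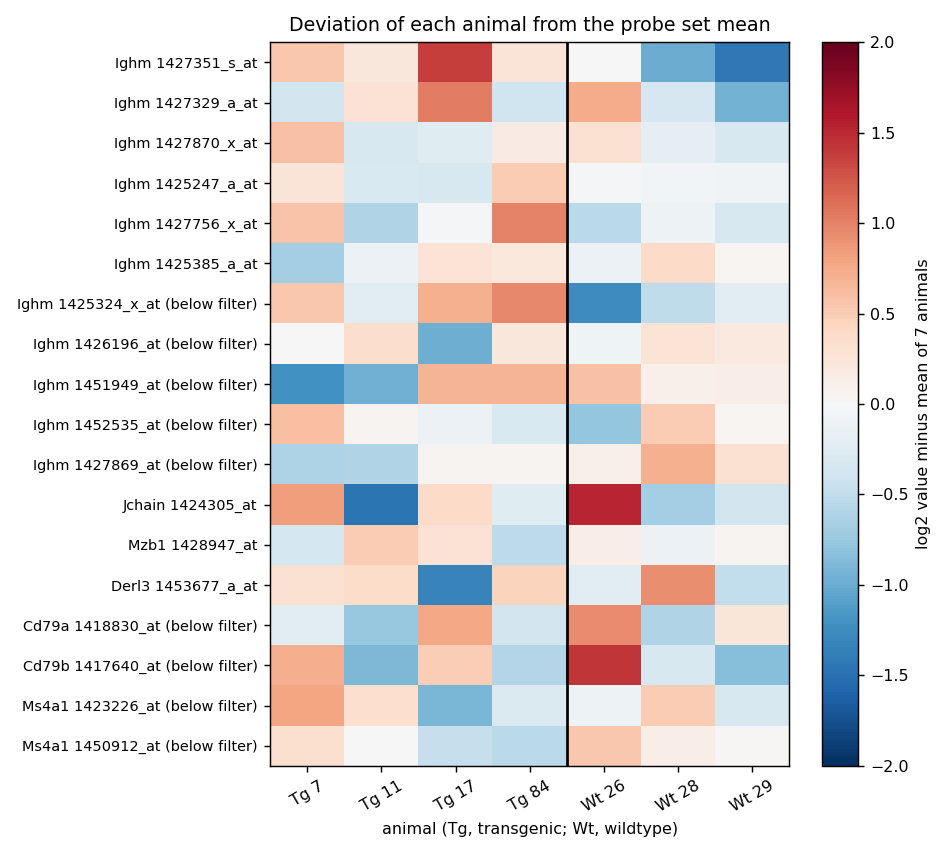
Deviation of each animal (columns, transgenic left of the black line) from the mean of its probe set over 7 animals (rows), in log2 units from blue, lower, to red, higher. Wildtype 26 is reddest and transgenic 11 bluest for Jchain and Cd79b, and only Ighm 1427351_s_at has all transgenic animals above all wildtype animals among the tested rows.

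Repeat arrays put a scale on these differences. Between the 2 arrays of wildtype 29 the median gap was 0.20 over the 9 tested probe sets, close to the 0.19 over all 27022, and 0.71 over the 9 below the filter. In 13 of the 18 probe sets the gap was larger than the difference between transgenic and wildtype means. Ighm 1427351_s_at is among the 5 in which it was smaller, with a gap of 0.20. A gap sets 1 array against 1 other, while a group difference sets means over animals, so these are unlike measures. How often the gap is the larger over all probe sets was not counted.

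Males and females gave no called difference between their group effects. Both groups held both sexes, with 1 wildtype female. For the interaction of group and sex limma called 0 of the 9 tested member probe sets and 0 of 27022 (0.00%), with an adjusted p of 1 for each member. At an unadjusted p under 0.05 it gave 1 of 9, Ighm 1427870_x_at (interaction 1.04), where 2.86% of all tested probe sets passed. That probe set averaged 9.21 in transgenic females and 8.56 in transgenic males, against 8.52 in the wildtype female and 8.90 in wildtype males.

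Other genes of the B lineage were read from 7 lists, with the most abundant probe set for each gene. Of the 75 genes tested limma called 0, and 6 had an unadjusted p under 0.05, where 9.00% of all 13559 genes did. Over all genes the median log2 difference was 0.05, with 56.3% above 0. By their most abundant probe sets the tested genes named here had limma adjusted p from 0.294 to 0.768, so none of these differences passed. Where other probe sets of these genes are quoted below, only the difference is given. Of the 30 named genes tested, 20 had a difference that moved by over 1.5 times or turned sign when 1 animal was left out, and 17 when adjusted for the Gapdh ratio. Markers of other cell types in skin also lay mostly above 0, with medians of 0.47 for adipocytes (6 of 6 above 0, 4 at an unadjusted p under 0.05), 0.45 for mast cells (6 of 7), 0.25 for skeletal muscle (8 of 8), 0.18 for macrophages and dendritic cells (11 of 14) and 0.13 for keratinocytes (7 of 9). Their part in the values of the B lineage lists was not tested.

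Receptor and surface genes had a median of 0.23, with 8 of 9 above 0. Cd22, an inhibitory coreceptor of B cells, measured 7.03, 6.90, 6.68 and 6.84 in transgenic 7, 11, 17 and 84, against 6.61, 6.41 and 5.72 in wildtype 26, 28 and 29. Its groups did not overlap, but its other probe set, below the filter, gave -0.41. The arrays of wildtype 29 read 5.04 and 6.40 for Cd22, a gap of 1.36 against a group difference of 0.62, which was 0.35 without that animal and 0.39 with its second array only. Fcgr2b, the inhibitory Fc receptor also found on myeloid cells, gave 0.42, Cd24a, a surface glycoprotein that keratinocytes also make, 0.26, and Ly86, a partner of CD180, 0.35. Without wildtype 29 Fcgr2b was 0.13 and Ly86 was 0.02, and without wildtype 26 both were 0.74. The median of this list was 0.02 without wildtype 29. Signalling genes had a median of 0.15, with 8 of 11 above 0. Plcg2, a phospholipase downstream of the receptor, gave 0.79 (SE 0.243, limma adjusted p = 0.331), while the kinase Syk gave -0.38, and Inpp5d, a lipid phosphatase, and Bank1, an adaptor, gave 0.37 each.

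Transcription factors and Cd74 had a median of 0.24, with 8 of 10 above 0. Bcl6, the factor of germinal centres, gave 0.72 (limma adjusted p = 0.395), but its other probe set gave -0.20 and adjustment for the Gapdh ratio gave 0.08. Ebf1, an early B cell factor that adipocytes also use, gave 0.32, with other tested probe sets from -0.58 to 0.42. Cd74, the invariant chain of MHC class II, gave -0.29 and turned to 0.02 without wildtype 26, and Ikzf1, a lymphoid zinc finger factor, gave 0.29, with -0.65 from its other tested probe set and 0.04 without wildtype 29. Immunoglobulin genes other than Ighm had a median of 0.20 over 5 genes, 3 above 0. Of the 18 genes in this list only 8 had a probe set of their own. With the level filter at the 60th percentile the median was -0.72. Ighg3, the heavy chain of IgG3, gave -0.77, Igll1, a surrogate light chain, 0.64, and Igk, the kappa locus, 0.24. Leaving out 1 wildtype animal took Igll1 to 0.25 (wildtype 26) or 1.17 (wildtype 28), and Ighg3 to -0.45 or -1.11.

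Plasma cell regulators had a median of -0.03, with 4 of 9 above 0. Cxcr4, a chemokine receptor that retains plasma cells in bone marrow and is made by many other cells, measured 8.53, 8.34, 8.34 and 8.25 in transgenic 7, 11, 17 and 84, against 7.17, 7.67 and 7.64 in wildtype 26, 28 and 29. All transgenic animals lay above the wildtype ones (log2 difference 0.87, SE 0.197, limma adjusted p = 0.294). Prdm1, the factor BLIMP1 of plasma cells that also acts in epidermis, gave -0.51. Irf4, needed for plasma cells and present in melanocytes, gave -1.39, and 0.34 when adjusted for the Gapdh ratio. Its other probe set, below the filter, gave -0.20. Groups overlapped in the first, where the intensity was 8.5 in transgenic 7 and 31 in transgenic 84. Xbp1, the factor of the unfolded protein response, gave -0.22, with -0.97, -0.59 and -0.40 from its other probe sets.

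Secretory pathway genes, which every secreting cell uses, had a median of 0.02 over 25 genes, with 15 above 0. Manf, a stress-induced factor of the endoplasmic reticulum, measured 11.36, 11.91, 11.90 and 11.30 in transgenic 7, 11, 17 and 84, against 12.52, 12.25 and 11.92 in wildtype 26, 28 and 29. All transgenic animals lay below the wildtype ones with transgenic 11 next to wildtype 29 (limma adjusted p = 0.356). Derl2, a relative of Derl3, gave -0.60, with 0.06 from its other probe set and 0.03 when adjusted for the Gapdh ratio. Creld2 and Edem2, further genes of protein quality control there, gave -0.28 and -0.47.

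Survival factors and homing chemokines had a median of 0.22, with 5 of 6 above 0. Tnfsf13b, the B cell survival factor BAFF, measured 7.07, 7.09, 7.76 and 7.60 in transgenic 7, 11, 17 and 84, against 7.00, 6.89 and 6.71 in wildtype 26, 28 and 29. The groups did not overlap, but transgenic 7 and 11 lay close to wildtype 26 (log2 difference 0.51, limma adjusted p = 0.468). Ccl27a and Ccl28, chemokines of skin and mucosa, gave 0.25 and 0.35, Cxcl13, which draws B cells, -0.43, and Pigr, the receptor that carries polymeric IgA across epithelia, 0.19. The difference of -0.43 for Cxcl13 became -1.31 when adjusted for the Gapdh ratio, and the other probe set of Cxcl13 gave -0.76. Glycam1, a product of lymph node venules and mammary gland, lay between 4.76 and 5.24 in all animals, near the floor of 4.45. Of the lymph node list 1 of 4 tested genes lay above 0, with a median of -0.18, and of the mammary gland list 5 of 8, with a median of 0.25. Cd3e, a T cell marker, gave 0.33, and T and natural killer cell markers had a median of 0.06 (7 of 11 above 0).

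**Figure D5:**
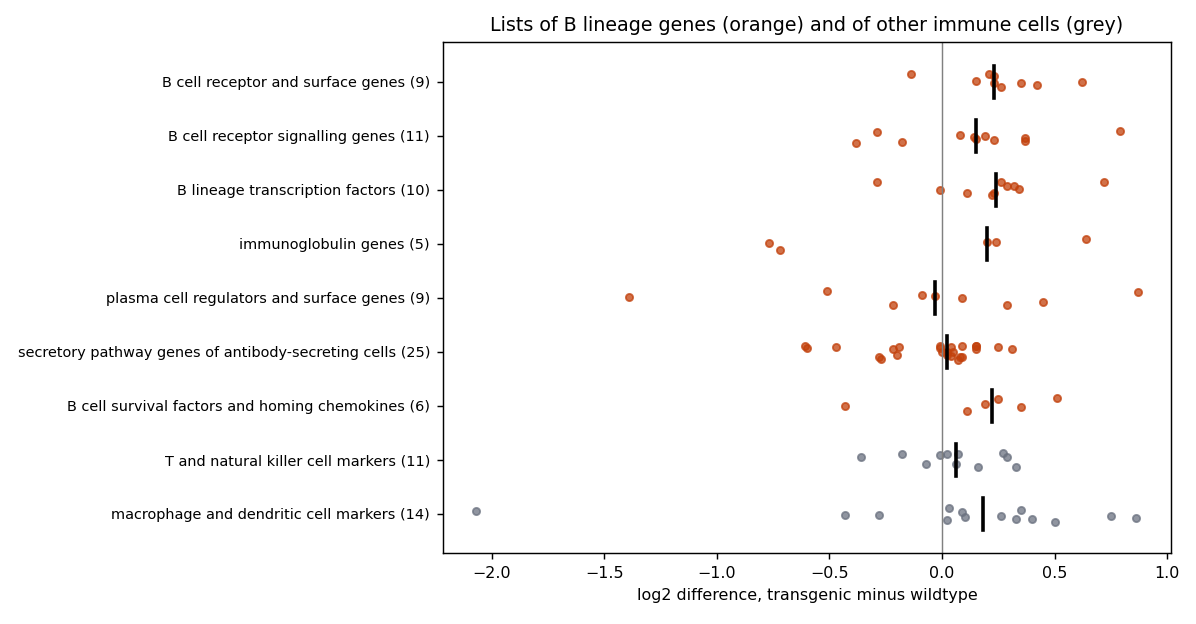
Log2 difference, transgenic minus wildtype (horizontal axis), of each tested gene in 7 lists of B lineage genes (orange) and in 2 lists of other immune cells (grey), with the number tested after each name and the median as a black bar. Medians of the B lineage lists lie between -0.03 and 0.24, and no gene in them was called.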

How the data were processed

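RNA of belly skin from 4 transgenic and 3 wildtype mice was hybridised after one-cycle labelling, per the labels' protocols. The authors deposited 1 linear intensity per probe set and array, from MAS5 per the submitters' processing notes (version not given in the sources used here). The trimmed mean of an array, with 2% cut at either end, averaged 500 over the 8 arrays. Gene symbols came from the array annotation table. The pseudocount of 21.8 is the 20th percentile over the whole table, and no further normalization was applied to the log2 values, and the 2 arrays of wildtype 29 were averaged. Probe sets with a mean at or above the 40th percentile (6.45) entered a limma fit (version 3.58.1, R 4.3.3) (group only, empirical Bayes with trend, 2-sided, Benjamini-Hochberg over all 27022). The pipeline was tested on simulated data. Exact permutation tests ran over the 35 ways to split the animals. Summaries used Python 3.11.15. The number of arrays limits the precision.

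The members, gene lists, tests and alternatives were chosen with earlier results of these data known. Named genes were all member probe sets, 11 further genes where measured, up to 4 genes with the smallest p from each of 7 B lineage lists, and the 5 genes most correlated with Jchain. The same was planned for the tested probe sets of Cd79a, Cd79b and Ms4a1, of which there were 0. The 5 genes most like Ighm 1427351_s_at were added after its values were seen. Alternatives covered normalization, pseudocount, level filter, variance model, covariates, the arrays of wildtype 29, 1 probe set per gene and each animal left out.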

Additional observations from a re-analysis of the deposited data

Results flagged for a closer look

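Derl3 in transgenic 17, at 5.30, stood away from the other 3 transgenic animals, which lay between 6.93 and 7.07. Its gap to the nearest of them was 0.922 of the range of the group. This was the only such case among the 50 probe sets checked, and chance alone puts about 1 in 20 groups in this position.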

How the results depend on the processing

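The 18 member probe sets and 32 other named genes were recomputed under 21 alternatives, and no member probe set tested was called by limma in any of them (0 to 2 had an unadjusted p under 0.05). The lowest limma adjusted p was 0.119, for Ighm 1427351_s_at without transgenic 11, and over its alternatives that probe set ranged from 1.11 to 1.82 in log2 difference and from 0.119 to 1 in adjusted p. The number of tested members at an unadjusted p under 0.05 was 1, but 2 without the level filter, 0 when adjusted for the Gapdh ratio, and 1 to 2 with an animal left out. Of 1034 alternative values 46 turned sign, 30 of them for tested probe sets and 16 for probe sets below the level filter, each for a difference that had not passed, and the cause was not tested. Adjusting for the Gapdh ratio turned Ighm 1427870_x_at (-0.42), 1425247_a_at (-0.48) and 1427756_x_at (-0.49), Mzb1 (0.69), Cd24a (-0.08), Bank1 (-0.01), Irf4 (0.34), Derl2 (0.03) and Edem2 (0.07). Without transgenic 7 and 84 together they were Ighm 1427870_x_at (-0.22), 1425247_a_at (-0.26) and Mzb1 (0.38). Mzb1 also turned after quantile (0.02) and cyclic loess normalization (0.04), with sex as a covariate (0.04) and with the second array of wildtype 29 only (0.02). With an animal left out the lowest and highest values were -0.06 and 0.78 for Ighm 1427329_a_at, -0.07 and 0.29 for 1427870_x_at, -0.07 and 0.21 for 1425247_a_at, -0.29 and 0.03 for 1425385_a_at, -0.70 and 0.40 for Jchain, -0.21 and 0.13 for Mzb1, -0.40 and 0.30 for Derl3, -0.44 and 0.02 for Cd74 and -1.15 and 0.04 for Igha. Below the filter they were -0.73 and 0.04 for Cd79a, -0.62 and 0.52 for Cd79b and -0.31 and 0.25 for Ms4a1 1423226_at. The number called among all probe sets, 4, was 10 with a pseudocount of 87.2, 2 with the filter at the 60th percentile, 11 with sex as a covariate, 0 when adjusted for the Gapdh ratio (851 at an unadjusted p under 0.05), 9 with the second array of wildtype 29 only, and 0 with 1 probe set per gene (1230 at an unadjusted p under 0.05). With an animal left out it ran from 0 to 280, the highest when transgenic 11 was left out. It was 12 without transgenic 17 and 11 without transgenic 84. Leaving out wildtype 26 gave 2 and leaving out wildtype 28 gave 0 (1652 with unadjusted p below 0.05). No paired analysis was possible because the groups share no animal numbers. The interaction of group and sex could not be fitted without wildtype 29 or without transgenic 7 and 84 together, which leave a group with 1 sex, and it was not run with the Gapdh ratio added. Low signal limits Cd79a, Cd79b and Ms4a1, which lay below the level filter.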
